A study of Arabidopsis thaliana with 12 samples.

Results

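The WRKY transcription factor genes of Arabidopsis thaliana were followed as a family through 4 groups of seedlings. The family was taken as 54 genes fixed by identifier out of 72 WRKY genes named in the reference annotation, among 19895 loci listed in the authors' 3 gene tables. These members, and the gene lists used below, were chosen with earlier results of these data known. Their shares of calls beside all loci are therefore a description. Of the 54, 52 had a row in at least 1 gene table and 47 in all 3, while the levels of WRKY58 and WRKY42 were not analysed here. WRKY45 (AT3G01970) was listed only in a locus merged with its neighbour AT3G01980, so it is kept out of the counts and its values are those of both genes.

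RNA came from bulked whole seedlings aged 2 weeks, all on the Col-0 background and all grown on sucrose agar. Wild type and the mutant rbm25-1 were each left without treatment or sprayed with 0.1 mM abscisic acid (ABA) and harvested after 6 hours, with 3 replicates in each of the 4 groups. No mock spray is named for the untreated groups, so spraying and ABA cannot be told apart. Only rbm25-1 was examined as a mutant line, and RBM25 (AT1G60200), the splicing factor gene it is named for, served as the check of the labels: it stood at 9.15 FPKM in untreated wild type against 2.55 in rbm25-1, and at 9.26 against 1.46 with ABA.

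All levels below are the authors' single value per group in FPKM, fragments scaled to transcript length and to the mapped fragments of the library, so no spread between replicates can be shown and the depth is unknown. A gene is called higher or lower where the authors' adjusted p from Cuffdiff, named q, is under 0.05. The labels number the replicates without naming separate cultures, so the authors' p-values may measure technical spread alone. Of the members, 11 overlap another annotated gene on the other strand (WRKY1, WRKY2, WRKY4, WRKY9, WRKY29, WRKY33, WRKY40, WRKY41, WRKY53, WRKY61 and WRKY69), and since no source used here says whether reads were assigned by strand, their levels can hold reads of the partner. Whole-seedling tissue was seen in the markers: 6 of 6 leaf genes and 10 of 11 root genes were listed, with leaf genes summing to 17122 FPKM in untreated wild type and CASP1, a root endodermis gene, at 75.5.

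WRKY proteins are plant transcription factors named for a conserved DNA-binding domain that carries a zinc finger and recognises a short promoter element, the W box. Group I members carry a pair of these domains, group II members a single domain (with subgroups IIa to IIe by sequence), and group III members a single domain with another form of zinc finger. The family is best known for defence, where MAP kinases, VQ motif proteins and salicylate act on it, and several members also regulate senescence and responses to ABA.

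The 300 bases before the annotated start are shown for 4 genes that led the ABA response, because the family is known to bind W boxes in its own promoters. Capitals mark W boxes (TTGACC or TTGACT, on either strand, so also as GGTCAA or AGTCAA) and the core of the ABA-responsive element, ABRE (ACGTG or its reverse CACGT). The sequences were read from the reference genome TAIR10.1 and run 5′ to 3′ on the gene's strand, from chr5:8154711-8155010 (minus strand) for WRKY30, chr5:18804057-18804356 (minus) for WRKY8, chr1:30383261-30383560 (plus) for WRKY40 and chr2:16107935-16108234 (plus) for WRKY33.
WRKY30: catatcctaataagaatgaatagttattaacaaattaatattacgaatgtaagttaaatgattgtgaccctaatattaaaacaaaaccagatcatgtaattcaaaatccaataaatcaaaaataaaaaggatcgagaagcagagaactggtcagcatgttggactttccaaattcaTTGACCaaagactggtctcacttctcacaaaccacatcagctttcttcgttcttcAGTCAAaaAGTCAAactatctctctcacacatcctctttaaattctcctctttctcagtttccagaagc
WRKY8: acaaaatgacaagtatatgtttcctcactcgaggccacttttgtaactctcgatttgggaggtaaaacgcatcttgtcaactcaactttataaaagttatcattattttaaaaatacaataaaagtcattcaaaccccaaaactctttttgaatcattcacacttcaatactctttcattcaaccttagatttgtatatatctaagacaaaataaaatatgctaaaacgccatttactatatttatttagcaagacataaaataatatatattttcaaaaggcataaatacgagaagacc
WRKY40: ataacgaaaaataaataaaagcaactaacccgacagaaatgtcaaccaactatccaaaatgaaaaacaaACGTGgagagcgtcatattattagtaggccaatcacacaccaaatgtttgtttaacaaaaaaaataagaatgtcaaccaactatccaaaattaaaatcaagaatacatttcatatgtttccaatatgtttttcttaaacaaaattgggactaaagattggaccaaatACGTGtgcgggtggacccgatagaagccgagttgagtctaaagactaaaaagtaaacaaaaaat
WRKY33: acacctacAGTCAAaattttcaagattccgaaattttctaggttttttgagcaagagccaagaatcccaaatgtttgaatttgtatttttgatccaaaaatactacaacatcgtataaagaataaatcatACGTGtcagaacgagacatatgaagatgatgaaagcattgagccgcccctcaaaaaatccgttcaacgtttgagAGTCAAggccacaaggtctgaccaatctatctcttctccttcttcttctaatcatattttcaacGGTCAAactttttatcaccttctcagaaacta
WRKY30 and WRKY33 each held 3 W boxes in this window. WRKY8 held neither motif, and WRKY40 held 2 ABRE cores and no W box.

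Across the family, 22 of 54 windows (40.7%) held at least 1 W box, against 32.3% of the same windows of 27431 protein-coding genes. At least 2 W boxes were found in 9 members (16.7%), against 7.90% of all genes. The ABRE core was found in 16 members (29.6%), against 25.6% of all genes. Among the 28 members called higher with ABA in wild type, 12 (42.9%) held a W box, and among the 20 other tested members it was 7 (35%). Of the 28, the 18 that were at least 2-fold higher held it in 10 (55.6%). The ABRE core was held by 8 of the 28 (28.6%), 6 of the 20 (30%) and 6 of the 18 (33.3%). Each of these is a count of letters in a window and was not tested.

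**Figure D1:**
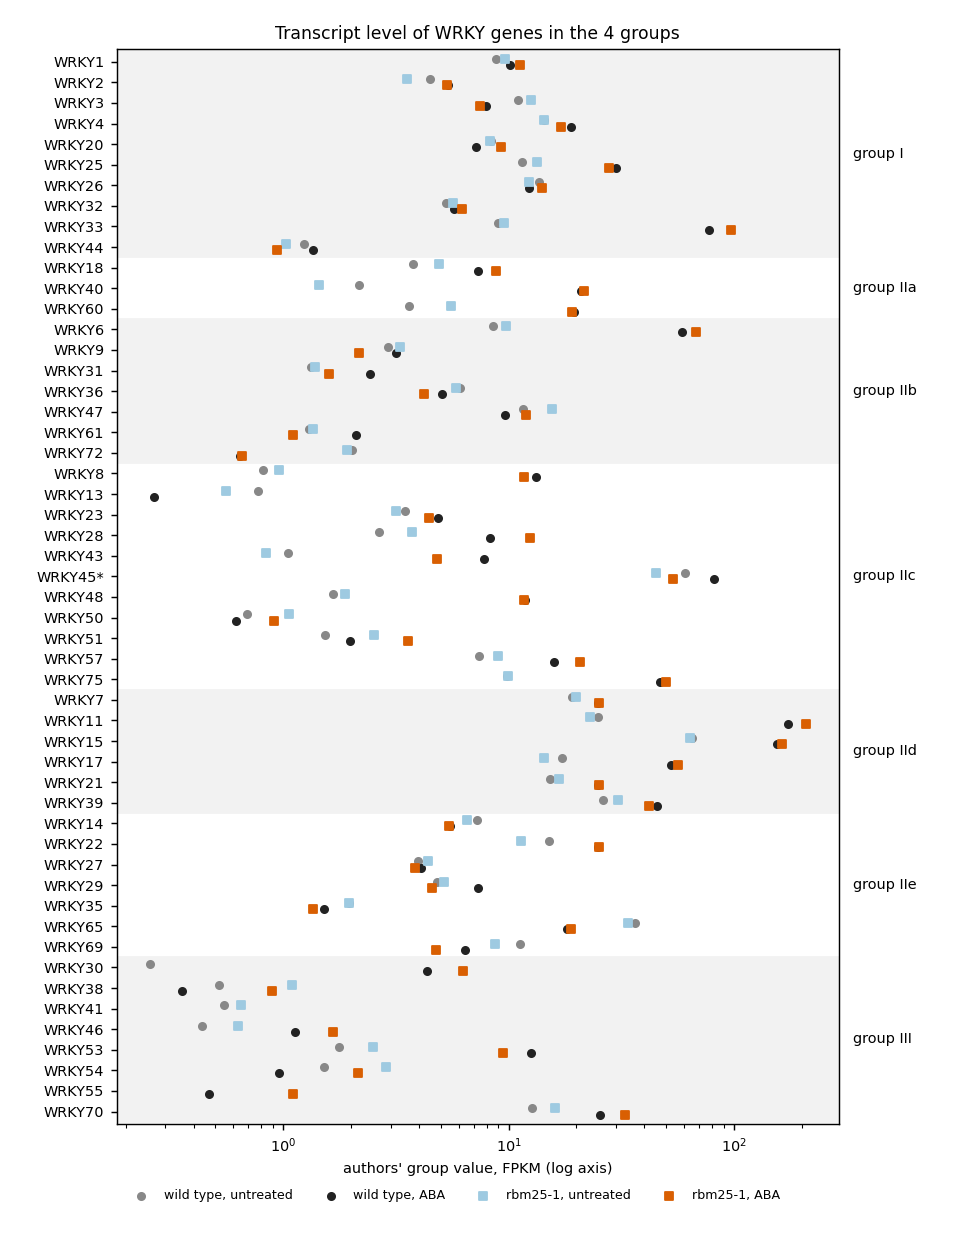
Group FPKM (log axis) of the 52 WRKY genes with a value, ordered by subgroup; circles are wild type and squares rbm25-1, grey and light blue without ABA, black and orange with it, and the star marks the merged locus of WRKY45. WRKY11 and WRKY15 stood furthest to the right with ABA, and most pairs of circle and square of 1 treatment lie close together.

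Summed WRKY levels were higher after ABA in both genotypes. Over the 46 members with a row of their own in all 3 tables, the summed level was 425 FPKM in untreated wild type and 1001 with ABA, 2.35 times as much. In rbm25-1 the sums were 436 and 1085 FPKM, 2.49 times as much. The 5 members highest in untreated wild type held 40.5% of the sum (WRKY15, WRKY65, WRKY39, WRKY11 and WRKY7), and the 5 highest with ABA held 51.6% (WRKY11, WRKY15, WRKY33, WRKY6 and WRKY17). The same genes led in rbm25-1, with 39.1% and 54.6%. The median member stood at 5.66 FPKM untreated and 8.95 with ABA in wild type, and 3 members were under 1 FPKM in each of the 4 groups. In these whole seedlings, fewer cells of a type and less RNA per cell cannot be told apart.

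In wild type, 70.8% of the tested members were called with ABA. Of 48 members tested alone, 28 were called higher and 6 lower, or 58.3% and 12.5%, where 26.0% and 30.1% of all tested loci were called higher and lower (56.1% in all). At least 2-fold changes were called in 18 members upward (background 11.8%) and 2 downward (background 11.6%). The median log2 fold change was 0.64 over the members and -0.07 over all loci. Of the 48, 35 had a log2 above 0. The same shares of all loci stand behind the subgroup counts below.

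The members with the largest log2 were WRKY30 and WRKY8. WRKY30 (AT5G24110), of oxidative stress and defence, stood at 0.256 FPKM in untreated wild type and 4.35 with ABA. In rbm25-1 it stood at 6.26 FPKM with ABA and had no untreated value. The authors' deposited table gives the wild-type change as log2 4.09 (q = 0.000132, the smallest q in these tables), and its gene lies at chr5:8153115-8154710. Its untreated level was under the 0.547 FPKM that was the lowest value in the higher group of any listed comparison, so WRKY30 could be listed only through its ABA level, and the same holds for WRKY46 at 0.436 FPKM untreated. Both are in the counts of members called higher. WRKY8 (AT5G46350), of wounding and salt responses, had 0.813 FPKM in untreated wild type, 13.2 with ABA, 0.961 in untreated rbm25-1 and 11.7 with ABA. Both genotypes showed the same picture, a gene near the lower end of the family untreated and in its upper part after ABA. The authors' deposited table gives WRKY8 a log2 of 4.02 in wild type (q = 0.000132).

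The 3 members of group IIa, which repress defence and ABA-responsive genes in overlapping ways, all rose. WRKY40 (AT1G80840) had 2.16 and 21.0 FPKM in wild type without and with ABA, and 1.44 and 21.7 in rbm25-1. WRKY60 (AT2G25000) had 3.61 and 19.4 FPKM in wild type, and 5.53 and 19 in rbm25-1. With ABA these genes stood at nearly the same level in either genotype, while untreated WRKY40 was listed lower and WRKY60 higher in the mutant. In the authors' deposited table the wild-type changes were log2 3.28 for WRKY40 and 2.43 for WRKY60, and 0.95 for WRKY18 (AT4G31800), all with q = 0.000132. WRKY18 went from 3.77 to 7.30 FPKM, the smallest step of the 3.

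In group I, 3 of 10 tested members rose and 1 fell, and the rest were not called, where 26.0% of all loci were higher and 30.1% lower. WRKY33 (AT2G38470), which drives synthesis of the phytoalexin camalexin and resistance to necrotrophic fungi, had 8.99 FPKM in untreated wild type and 77.3 with ABA, and 9.58 and 96.6 in rbm25-1. This is the steepest member of its group, at log2 3.10 in the authors' deposited table (q = 0.000132). WRKY25 (AT2G30250), of heat tolerance, went from 11.4 to 29.9 FPKM and WRKY4 (AT1G13960) from 14.4 to 18.9. WRKY3 (AT2G03340), the near relative of WRKY4 in resistance to necrotrophs, went the other way, from 11.0 to 7.91 FPKM in wild type and from 12.5 to 7.46 in rbm25-1. The authors' deposited table gives the fall of WRKY3 as log2 -0.48 (q = 0.00117). WRKY1 (AT2G04880), WRKY2, WRKY20, WRKY26, WRKY32 (AT4G30935) and WRKY44 were not called and had log2 values from -0.22 to 0.27 in the authors' deposited table.

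Group IId, whose members bind calmodulin, rose as a whole, 6 of 6. WRKY11 (AT4G31550), a negative regulator of basal resistance, had 24.9 FPKM in untreated wild type and 174 with ABA, and 22.9 and 208 in rbm25-1. It passed WRKY15 (AT2G23320), of oxidative stress responses, which had been the most abundant member untreated at 65.3 FPKM and reached 154 with ABA. The authors' deposited table gives log2 2.81 for WRKY11, 1.60 for its close relative WRKY17 (AT2G24570) and 1.24 for WRKY15. WRKY39 (AT3G04670) at log2 0.78, WRKY21 (AT2G30590) at 0.72 and WRKY7 (AT4G24240) at 0.39 completed the subgroup in the authors' deposited table. The order of these 6 by level was thus rearranged by ABA, with WRKY11 going from fourth-highest member of the whole family to the highest.

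Group IIb split. WRKY6 (AT1G62300), a regulator of senescence and of phosphate transport, had 8.56 and 58.8 FPKM in wild type and 9.76 and 68.1 in rbm25-1. It was the only member of the subgroup called at least 2-fold higher, at log2 2.78 in the authors' deposited table (q = 0.000132). WRKY72 (AT5G15130), of basal immunity, had 2.02 and 0.644 FPKM in wild type and 1.91 and 0.653 in rbm25-1. This was the steepest called fall of the family, to 31.9% of the untreated level, at log2 -1.65 in the authors' deposited table (q = 0.000132). WRKY31 and WRKY61 rose at low levels and are described with the mutant. WRKY9, WRKY36 (AT1G69810) and WRKY47 (AT4G01720) were not called, with log2 0.12, -0.26 and -0.27 in the authors' deposited table.

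Group IIc held 7 called rises among 10 tested members and no fall. WRKY43 (AT2G46130), which acts in seed germination, had 1.05 and 7.77 FPKM in wild type and 0.835 and 4.83 in rbm25-1. WRKY48 (AT5G49520), a negative regulator of basal resistance, had 1.67 and 11.9 FPKM in wild type and 1.87 and 11.6 in rbm25-1. Both rose about as steeply in wild type, at log2 2.89 and 2.83 in the authors' deposited table (q = 0.000132 for each). WRKY75 (AT5G13080), of phosphate starvation and root hairs, went from 9.81 to 46.8 FPKM, and WRKY28, WRKY57 and WRKY23 (AT2G47260) rose less steeply. WRKY13 (AT4G39410), of stem development, was listed at 0.774 and 0.266 FPKM, log2 -1.54 in the authors' deposited table, and was not called (q = 0.0629). WRKY50 (AT5G26170) was near 1 FPKM or under in all 4 groups and was not called in any comparison. The merged locus with WRKY45, a gene of phosphate uptake, was at 60.4 and 81.4 FPKM in wild type.

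Group IIe was the subgroup with more falls than rises, 3 against 2 of 7. All loci also had more falls than rises, with 30.1% called lower and 26.0% higher. WRKY65 (AT1G29280) had 36.5 and 18.2 FPKM in wild type and 33.7 and 18.9 in rbm25-1. WRKY69 (AT3G58710) had 11.3 and 6.38 FPKM in wild type and 8.67 and 4.77 in rbm25-1, and WRKY14 (AT1G30650) 7.25 and 5.47, and 6.54 and 5.44. All 3 fell, and each stood lower with ABA in both genotypes. The authors' deposited table gives the wild-type changes as log2 -1.0 for WRKY65 and -0.82 for WRKY69 (q = 0.000132 for both), and -0.41 for WRKY14 (q = 0.0129). WRKY22 and WRKY29, which act below MAP kinases in responses to bacterial flagellin, rose, at log2 0.72 and 0.60 in the authors' deposited table. WRKY27 (AT5G52830) and WRKY35 (AT2G34830) were not called. The summed level of the 7 was 80.8 FPKM untreated and 67.9 with ABA in wild type, the only subgroup sum that was lower with ABA.

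In group III, 4 of 5 tested members rose and 1 fell, where 26.0% of all loci were called higher. The rises include WRKY30 and WRKY46, which were listed only through their ABA levels, so the count is no measure of an excess in the group. WRKY53 (AT4G23810), a regulator of leaf senescence, had 1.77 and 12.6 FPKM in wild type and 2.49 and 9.45 in rbm25-1. WRKY70 (AT3G56400), where salicylate and jasmonate signals meet, had 12.6 and 25.5 FPKM in wild type and 16.0 and 32.8 in rbm25-1. Its close relative WRKY54 (AT2G40750) fell, from 1.51 to 0.961 FPKM in wild type, and stood at 2.86 and 2.16 in rbm25-1. So the pair that acts together in salicylate signalling and senescence moved apart with ABA in wild type. In the authors' deposited table the log2 values were 2.83 for WRKY53, 1.01 for WRKY70 (q = 0.000132 for both) and -0.65 for WRKY54 (q = 0.0278). AT4G23800, which overlaps WRKY53 on the other strand, had log2 -1.22 in the authors' deposited table.

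**Figure D2:**
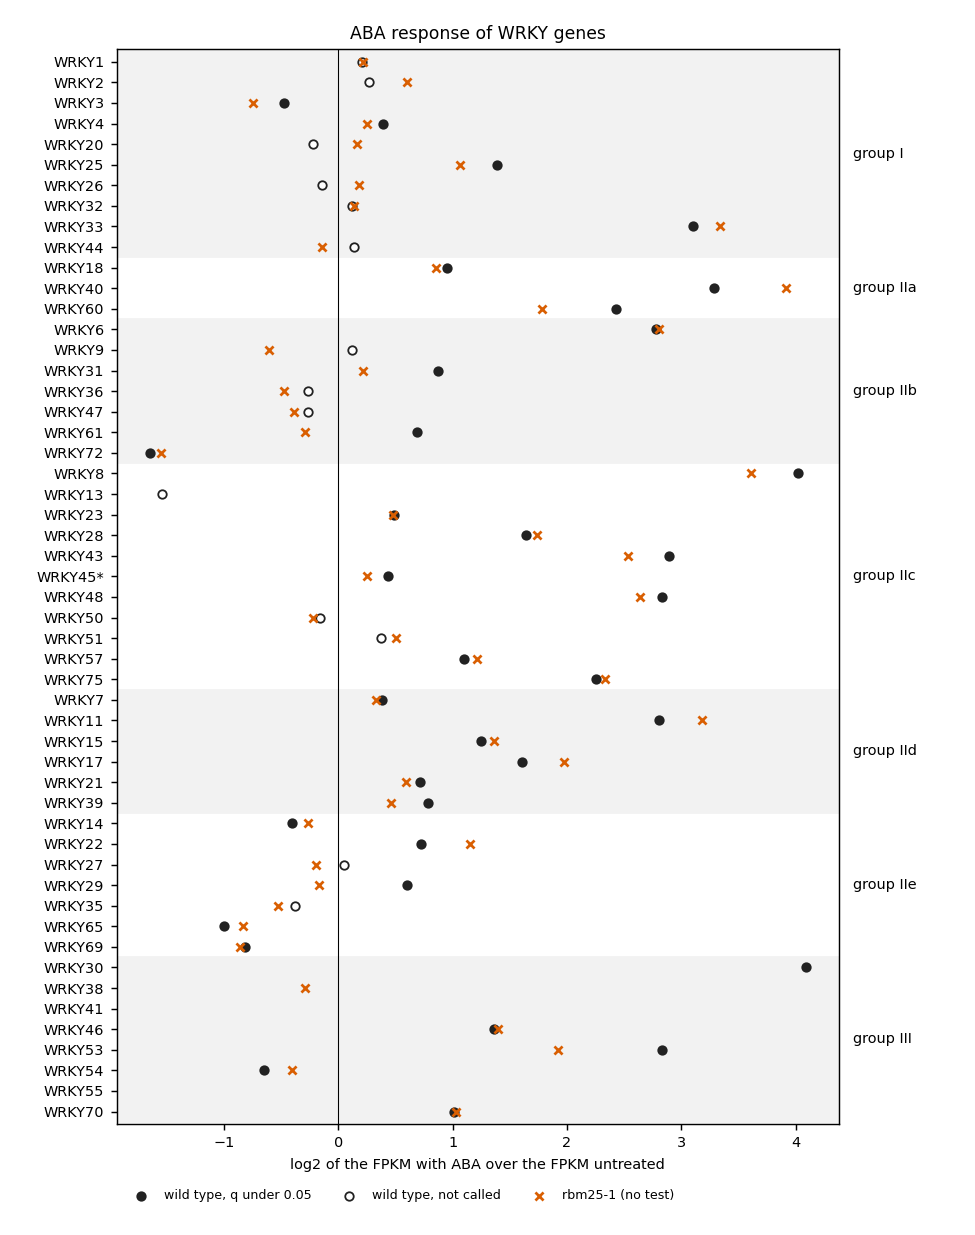
log2 of FPKM with ABA over FPKM untreated for each WRKY gene, by subgroup; filled circles are called changes in wild type, open circles were not called, and crosses are the ratio of the group values in rbm25-1, for which the tables give no test. All 6 filled circles of group IId lie right of 0, group IIe has 3 left and 2 right of it, and most crosses lie on or beside their circle.

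Tissue markers were called with ABA too, where 30.1% of all loci were called lower. All 6 leaf markers were called lower, from a sum of 17122 to 5977 FPKM, and 9 of 10 tested root markers were called lower, from 152 to 59.4 FPKM. Of 13 tested genes of rapid touch and wound responses, 8 were called higher and 1 lower, the summed level going from 351 to 779 FPKM. The part of tissue make-up or of handling in the WRKY values was not tested.

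Genes that act with the family were also called with ABA. Of 10 genes of the MAP kinase cascade above WRKY33, WRKY22 and WRKY29, 8 were called higher and 0 lower with ABA in wild type. MPK11, a MAP kinase of the MPK4 branch, stood at 0.398 and 11.0 FPKM (log2 4.78 in the authors' deposited table), and the kinase kinase genes MKK9, MKK4 and MKK1 had log2 1.20, 1.14 and 1.04 in the authors' deposited table. Of 22 tested VQ motif proteins, small cofactors that bind WRKY domains, 13 were called higher and 4 lower, with AT1G78410 at log2 3.64, AT2G22880 at 3.11, AT4G20000 at 2.80 and AT1G80450 at 2.56 in the authors' deposited table. Of 13 tested genes of salicylate synthesis, perception and defence output, 9 were called higher and 1 lower. PBS3, an enzyme of salicylate synthesis, had log2 3.86, ALD1, of pipecolate synthesis, 2.93, SARD1, a regulator of salicylate synthesis, 2.00, and NIMIN1, which binds the receptor NPR1, 1.63 in the authors' deposited table. PAD4, a regulator of salicylate-dependent defence, was the called fall among the 13, at log2 -0.70 in the authors' deposited table. PR1, PR5 and FMO1 were listed only in loci merged with neighbours and kept out of these counts. The merged locus with PR1 was called lower (log2 -0.62), that with PR5 higher (2.85), and that with FMO1 was not called in the authors' deposited table. MPK11, PBS3 and ALD1 stood under the lowest listed level untreated and were listed through their ABA values. These counts stand beside 26.0% of all loci called higher and 30.1% called lower.

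**Figure D3:**
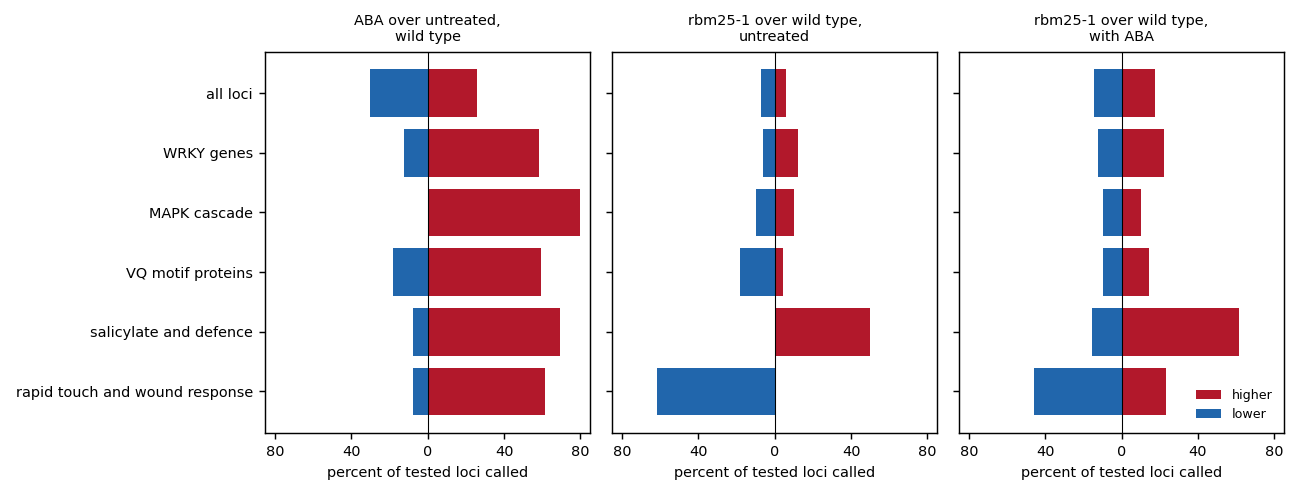
Percent of tested loci called higher (red, right) and lower (blue, left) among all loci, WRKY genes and 4 lists of genes that act with them, in the 3 comparisons. WRKY genes reach 58.3% higher with ABA in wild type against 26.0% of all loci, and the salicylate and defence list stands furthest to the right in both comparisons of rbm25-1. Members and lists were chosen with earlier results of these data known.

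The mutant comparisons set rbm25-1 against wild type, without and with the hormone. In untreated seedlings, 6 of 49 tested members were called higher in rbm25-1 and 3 lower (12.2% and 6.12%), where 6.15% and 7.2% of all loci were called (13.3% in all). The median log2 was 0.10 over the members and -0.01 over all loci. WRKY38 was the member called at least 2-fold higher (background 0.735%), and 0 were called at least 2-fold lower (background 0.673%). With ABA, 11 of 49 were called higher and 6 lower (22.4% and 12.2%), where 17.7% and 14.3% of all loci were called (31.9% in all). The median log2 with ABA was 0.02 over the members and over all loci. WRKY38, WRKY54 and WRKY55 were called at least 2-fold higher (background 1.3%) and 0 at least 2-fold lower (background 1.79%). Members were called in 5 of 7 subgroups in either comparison. WRKY38 and WRKY55 stood under 0.547 FPKM in wild type, the lowest level listed in the higher group of any comparison, so they could be listed only where the mutant was high, and the counts of members higher in rbm25-1 are partly set by that listing. WRKY46, at 0.436 FPKM in untreated wild type, was likewise listed untreated only through its mutant value, and was not called there.

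In group III, 3 of 6 listed members were called higher in untreated rbm25-1 and 6 of 7 with ABA. The counts include WRKY38 in both and WRKY55 with ABA, and the 6 listed untreated include WRKY46. They are therefore no measure of an excess in the group. WRKY54, at chr2:17000419-17002528, had 1.51 FPKM in untreated wild type and 2.86 in untreated rbm25-1, and 0.961 and 2.16 with ABA. The mutant was higher in both conditions, and its level with ABA was above that of untreated wild type. In the authors' deposited tables this was log2 0.92 untreated and 1.17 with ABA, each with q = 0.000132. WRKY70, its partner in function, had 12.6 and 16.0 FPKM untreated and 25.5 and 32.8 with ABA. The steps of WRKY70 were smaller, log2 0.34 (q = 0.0322) and 0.36 (q = 0.0122) in the authors' deposited tables. When the p-values were adjusted within the untreated table alone, that of WRKY70 came to 0.163 and its untreated call ended.

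WRKY38 (AT5G22570), a negative regulator of defence that acts with NPR1, had 0.519 FPKM in untreated wild type and 1.10 in untreated rbm25-1, and 0.354 and 0.895 with ABA. These are low levels, and the gene was listed through its mutant values. The authors' deposited tables give log2 1.08 (q = 0.0142) and 1.34 (q = 0.0326), and both calls ended when adjusted within their tables (0.0944 and 0.0645). WRKY55 (AT2G40740), of senescence and salicylate accumulation, lies next to WRKY54 at chr2:16997078-16999499 and was listed with ABA alone, at 0.467 FPKM in wild type and 1.10 in rbm25-1. That is log2 1.24 (q = 0.0245) in the authors' deposited table, with 0.0512 when adjusted within the table. Like WRKY38, it was listed through its mutant value.

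WRKY46 (AT2G46400), of salicylate signalling and stomatal responses, had 0.436 and 0.631 FPKM untreated and 1.12 and 1.67 with ABA. Untreated, it was listed through its mutant value. WRKY30 had 4.35 FPKM in wild type and 6.26 in rbm25-1 with ABA and no row untreated. Both were called higher with ABA, at log2 0.57 (q = 0.0484) and 0.53 (q = 0.00467) in the authors' deposited table, and WRKY46 came to 0.0889 when adjusted within the table. WRKY53 was called in neither condition, with log2 0.49 (q = 0.302) untreated and -0.41 (q = 0.0854) with ABA in the authors' deposited tables. WRKY41 (AT4G11070) had a row in untreated seedlings alone, at 0.547 and 0.653 FPKM, and was not called.

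Group IIc added 3 genes. WRKY28 (AT4G18170), an activator of the salicylate synthesis gene ICS1, had 2.65 FPKM in untreated wild type and 3.73 in untreated rbm25-1, and 8.29 and 12.4 with ABA. WRKY51 (AT5G64810), of the crosstalk between salicylate and jasmonate, had 1.53 and 2.53 FPKM untreated and 1.98 and 3.58 with ABA. For both, the mutant was above wild type in each condition, with log2 0.49 and 0.72 untreated (q = 0.0242 and 0.0181) and 0.58 and 0.85 with ABA (q = 0.000376 and 0.00117) in the authors' deposited tables. The untreated calls ended when adjusted within the table (0.135 and 0.112), and those with ABA did not. WRKY57 (AT1G69310), which acts in drought tolerance and senescence, had 7.42 and 8.93 FPKM untreated and 15.8 and 20.7 with ABA. It was called with ABA, at log2 0.38 (q = 0.00969) in the authors' deposited table.

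In group I, WRKY33 had 77.3 FPKM in wild type and 96.6 in rbm25-1 with ABA, and WRKY20 (AT4G26640) 7.16 and 9.28. Untreated, WRKY33 stood at 8.99 and 9.58 FPKM and WRKY20 at 8.34 and 8.28. Both were called higher in the mutant with ABA, at log2 0.32 (q = 0.0236) and 0.37 (q = 0.0141) in the authors' deposited table. WRKY60 was the group IIa member called, higher in untreated rbm25-1 at log2 0.62 (q = 0.00106) and at -0.03 (q = 0.865) with ABA in the authors' deposited tables. Its relative WRKY40 had log2 -0.58 (q = 0.111) untreated and was not called.

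The called falls were spread over groups I, IIb, IIc and IIe, and 0 members were called lower in both conditions. Untreated, WRKY22 (AT4G01250) stood at 15.1 FPKM in wild type and 11.3 in rbm25-1, and with ABA at 24.9 and 25.1. WRKY2 (AT5G56270), which acts in seed germination under ABA, stood at 4.48 and 3.53 FPKM untreated and 5.40 and 5.35 with ABA. Both were called untreated and not with ABA. WRKY69 had 11.3 and 8.67 FPKM untreated, and 6.38 and 4.77 with ABA. The authors' deposited table of untreated seedlings gives log2 -0.42 for WRKY22 (q = 0.00516), -0.35 for WRKY2 (q = 0.0291) and -0.38 for WRKY69 (q = 0.0333). The calls of WRKY2 and WRKY69 ended when adjusted within the table (0.152 and 0.167). With ABA, WRKY69 had log2 -0.42 in the authors' deposited table and was not called (q = 0.0719).

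With ABA, 3 of 7 members of group IIb were lower in rbm25-1. WRKY61 (AT1G18860) stood at 1.30 and 1.35 FPKM untreated, and at 2.10 in wild type and 1.10 in rbm25-1 with ABA. WRKY31 (AT4G22070) stood at 1.33 and 1.38 FPKM untreated, and at 2.42 and 1.60 with ABA. WRKY9 (AT1G68150) stood at 2.92 and 3.29 FPKM untreated, and at 3.17 and 2.16 with ABA. None of the 3 was called untreated, and with ABA the mutant was lower in each. The authors' deposited table gives log2 -0.93 for WRKY61 (q = 0.000132), -0.60 for WRKY31 (q = 0.00536) and -0.55 for WRKY9 (q = 0.0166). AT1G68160, which overlaps WRKY9 on the other strand, was also lower, at log2 -0.51 in the authors' deposited table (q = 0.00297), and reads of the overlap cannot be assigned here.

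The other falls with ABA were in WRKY29, WRKY43 and WRKY44. WRKY29 (AT4G23550) had 4.83 and 5.17 FPKM untreated, and 7.32 in wild type and 4.59 in rbm25-1 with ABA. WRKY43 had 1.05 and 0.835 FPKM untreated, and 7.77 and 4.83 with ABA. WRKY44 (AT2G37260), which shapes trichomes and the seed coat, had 1.24 and 1.03 FPKM untreated, and 1.36 and 0.937 with ABA. WRKY29 was thus above its untreated level with ABA in wild type and below it in rbm25-1, while WRKY43 was higher with ABA in both genotypes. The authors' deposited table gives log2 -0.67 for WRKY29 (q = 0.000494), -0.69 for WRKY43 (q = 0.00602) and -0.53 for WRKY44 (q = 0.0400), the last of which came to 0.0763 when adjusted within the table. The merged locus with WRKY45 was lower in rbm25-1 in both conditions, at 60.4 and 45.1 FPKM untreated and 81.4 and 53.6 with ABA.

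Groups IIa and IId had 0 members called in rbm25-1 with ABA, and group IId 0 untreated. WRKY11, the most abundant member with ABA, stood at 174 FPKM in wild type and 208 in rbm25-1, log2 0.26 in the authors' deposited table (q = 0.0726). WRKY15, WRKY17, WRKY7, WRKY21 and WRKY39 had log2 values from -0.26 to 0.21 in the authors' deposited tables of both conditions.

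**Figure D4:**
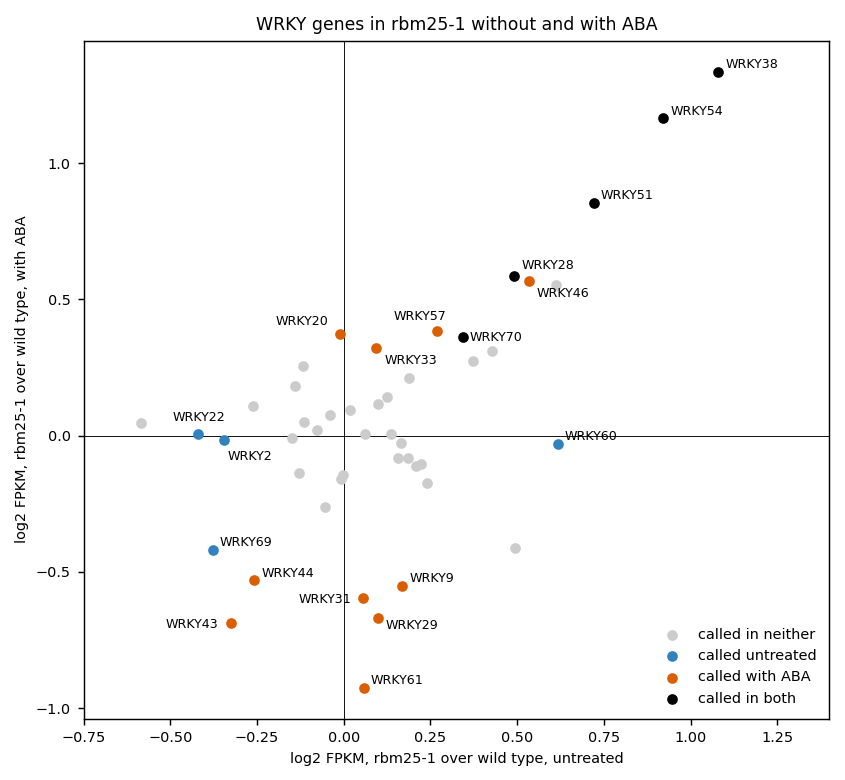
log2 of FPKM in rbm25-1 over wild type for the 47 WRKY genes with a row of their own in both mutant tables, untreated on the x axis and with ABA on the y axis; colour gives the condition in which the gene was called. The 5 black points (WRKY38, WRKY54, WRKY51, WRKY28 and WRKY70) lie in the upper right, and 0 genes were called lower in both. The share of all loci called in both was not counted.

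The 2 mutant comparisons share no sample group. Across the 47 members in both, 5 were called higher in both (WRKY28, WRKY38, WRKY51, WRKY54 and WRKY70), 0 lower in both, 0 in opposite directions, 4 untreated alone and 10 with ABA alone. The share of all loci called in both comparisons was not counted, so these joint counts are no measure of a trait of the family. WRKY38 in both comparisons, and WRKY46 untreated, could be listed only through their mutant values, so their log2 there could only be positive. As a description over members, with WRKY38 and WRKY46 included, Pearson's r of the log2 values was 0.61 and Spearman's rho 0.41. These members share libraries within each comparison, and whether the mutant's difference itself changes with ABA was not tested.

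Genes that act with WRKY factors in salicylate signalling were counted in the same way. Of 12 tested genes, 6 were called higher and 0 lower in untreated rbm25-1, where 6.15% of all loci were higher and 7.2% lower. With ABA, 8 of 13 were higher and 2 lower, where 17.7% of all loci were higher and 14.3% lower. The same shares of all loci stand behind the counts of the lists that follow. Since the lists were chosen with earlier results of these data known, these shares are a description. PR2, a defence output gene, stood at 3.46 and 11.3 FPKM untreated and 7.58 and 43.2 with ABA, log2 1.71 and 2.51 in the authors' deposited tables. SARD1 had log2 1.27 and 0.95 and NIMIN1 1.30 and 0.69 in the authors' deposited tables. ICS1, the target of WRKY28, had log2 0.15 untreated (q = 0.402) and 1.34 with ABA, and PBS3 had 1.41 with ABA in the authors' deposited tables. The called falls with ABA were ALD1 at log2 -0.74 and NPR3, a salicylate receptor, at -0.37 in the authors' deposited table. The merged locus with PR1, outside these counts, was called higher in both conditions, at log2 2.55 untreated and 3.24 with ABA in the authors' deposited tables. That with PR5 had log2 0.42 (called) and -0.04 (not called), and that with FMO1 was called in neither.

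Of 10 MAP kinase cascade genes, 1 was called higher and 1 lower in each mutant comparison. MKK9, at log2 -0.68 in untreated rbm25-1, and MPK11, at 0.92, were the untreated calls in the authors' deposited table, and with ABA they were MPK6 at 0.34 and MKK1 at -0.36. Untreated, MPK11 stood at 0.398 FPKM in wild type and 0.752 in rbm25-1, so it was listed only through its mutant value. Of the VQ motif proteins, 1 of 22 was called higher and 4 lower untreated, and 3 of 21 higher and 2 lower with ABA. AT4G20000 was higher in both conditions, at log2 0.81 and 0.63 in the authors' deposited tables. AT3G56880 (log2 -0.83) and AT2G22880 (-0.79) were lower untreated, and AT5G08480 (-1.38) was lower and AT1G78410 (0.85) higher with ABA in the authors' deposited tables.

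Other measured lists moved beside these calls. Of 13 rapid touch and wound genes, 8 were called lower in untreated rbm25-1 and 0 higher, from 351 to 215 FPKM in sum, with the carrier gene DIC2 at log2 -3.21, the deadenylase gene CAF1a at -2.95 and the repressor gene ZAT10 at -1.93 in the authors' deposited table. With ABA 3 were higher and 6 lower, the sum going from 779 to 780 FPKM. Leaf markers summed to 17122 and 21252 FPKM untreated, with 1 of 6 called higher, and to 5977 and 8590 with ABA, with 5 of 6 called higher in rbm25-1. Root markers were called in 1 of 10 (lower) untreated and 2 of 8 (higher) with ABA. Of the seed markers, 1 of 2 tested was lower untreated and 2 of 4 higher with ABA, all at 5.16 FPKM or under. CRU3, which was called, and OLEO1, which was not, had no level in wild type with ABA. They were listed only through their mutant values, so the count with ABA is partly set by that listing. The part of these shifts in the WRKY values was not tested.

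The response to ABA can be set side by side in the genotypes, although no deposited table compares rbm25-1 with and without ABA and the ratio there carries no test. Over 46 members, the wild-type log2 and the rbm25-1 log2 had the same sign in 39, and Pearson's r across members was 0.96 as a description. The median log2 was 0.64 in wild type and 0.47 in rbm25-1, and 39 members differed by less than 0.5. The other 7 differed by more. WRKY40 had a 9.73-fold ratio in wild type and 15-fold in rbm25-1, a larger step from a lower untreated level. The other 6 had smaller ratios in rbm25-1. WRKY53 had 7.11-fold and 3.79-fold, WRKY60 5.39-fold and 3.44-fold, and WRKY31 1.82-fold and 1.16-fold. WRKY61 had 1.61-fold and 0.816-fold, WRKY29 1.52-fold and 0.889-fold, and WRKY9 1.08-fold and 0.658-fold, so that these stood lower with ABA in rbm25-1. Whether any of these ratios differ between the genotypes was not tested.

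Splicing of the family was examined because RBM25 is a splicing factor. The authors' splicing tables list 28 distinct events that overlap 16 members, of which 15 are retained introns, 7 alternative acceptors, 3 alternative donors, 2 cassette exons and 1 an alternative first exon. Of the retained introns, 1 of 88 nt at WRKY69 lies on the strand opposite to the gene and is not an annotated intron. Of the acceptor events, 2 of WRKY60 reach past its annotated end. Each event is given as percent spliced in (PSI), the share of transcript that keeps the intron, exon or site. After Benjamini-Hochberg adjustment within each table, 0 of 19 events changed with ABA in wild type, 0 of 16 in untreated rbm25-1 and 0 of 21 in rbm25-1 with ABA, where 0.00952%, 0.0102% and 0.0179% of all events were called. The smallest adjusted p-values were 0.937, 0.896 and 0.659. At an unadjusted p under 0.05 the counts were 4, 0 and 3 events (background 4.83%, 6.13% and 6.4%), and with a PSI difference of at least 10 points as well they were 2, 0 and 2 (background 1.72%, 2.86% and 3.04%).

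WRKY26 (AT5G07100), a group I gene of heat tolerance, had both of the events that passed the unadjusted p and the 10 points in rbm25-1 with ABA. A pair of neighbouring introns is concerned, at chr5:2204466-2204607 and chr5:2204734-2204812, 142 and 79 nt long. Either lies between coding exons in 1 annotated transcript and upstream of the coding start in the others. Their splice sites are shown on the plus strand with the intron's ends in capitals.
WRKY26 142-nt intron, donor: tccaacGTatctatctatct
WRKY26 142-nt intron, acceptor: ctttgatcttgaaatcacAGattt
WRKY26 79-nt intron, donor: ccatctGTaggatccatttt
WRKY26 79-nt intron, acceptor: ttaaactatctcattttcAGatgg
Both have GT-AG ends, and neither length is a multiple of a codon, so that keeping either shifts the frame of the transcript in which they are coding introns.

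The 142-nt intron was retained at a PSI of 25.8% in untreated wild type, 47.1% with ABA, 14.3% in untreated rbm25-1 and 21.4% in rbm25-1 with ABA. The 79-nt intron was at 15.8%, 33.3%, 6.9% and 9.09% in the same order. In both introns wild type with ABA was the highest group and untreated rbm25-1 the lowest. The comparison of ABA in wild type and that of rbm25-1 with ABA share the wild-type ABA group, so their differences are not independent. The unadjusted p-values in the authors' deposited tables were 0.0888 and 0.0213 for ABA in wild type, 0.284 and 0.368 for untreated rbm25-1, and 0.0491 and 0.0238 for rbm25-1 with ABA. All failed the adjustment, and over the same groups the FPKM of WRKY26 was 13.6, 12.4, 12.4 and 14.0, called in no comparison.

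Other members with a PSI in all 4 groups varied less. The WRKY57 and WRKY69 introns below lack a value in 1 group, and that of WRKY69 ranged more widely, from 26.2% to 62.5%. The alternative first exon of WRKY20 was at 8.82% in untreated wild type, 23.5% with ABA, 11.5% in untreated rbm25-1 and 26.7% with ABA, the higher value with ABA in either genotype (unadjusted p = 0.0278 in wild type in the authors' deposited table). The 186-nt intron of WRKY70, in its coding region, was retained at 8.57% and 2.15% in wild type and at 0% in both rbm25-1 groups, with unadjusted p-values of 0.464 and 0.710 for the mutant in the authors' deposited tables. A 1188-nt intron of WRKY57 outside its coding region was at 0% in untreated wild type, 17.4% with ABA and 16.1% in rbm25-1 with ABA, with no value in untreated rbm25-1 and no call. An 89-nt intron of WRKY69, in its coding region, was retained at 47.1% in untreated wild type, 62.5% with ABA and 26.2% in untreated rbm25-1. It had no value in rbm25-1 with ABA and no call, with unadjusted p-values of 0.956 for ABA and 0.314 for the mutant in the authors' deposited tables. The intron of WRKY45 stayed between 1.85% and 2.38% in all 4 groups. The remaining events with an unadjusted p under 0.05 were small: an intron of WRKY33 at 0% and 1.27% and a donor of WRKY57 at 100% and 94.3% with ABA in wild type, and a cassette exon of WRKY60 at 100% and 94.3% in rbm25-1 with ABA.

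WRKY65, WRKY11 and WRKY69 use tandem acceptors, a pair of AG ends set 3 nt apart within the coding span, so that the choice adds or removes a codon. Both AGs are in capitals, on the gene's strand, and PSI counts the upstream AG.
WRKY65 (chr1:10236802-10236830, plus strand): atgtacttgttactttacAGcAGgagatc
WRKY11 (chr4:15290453-15290481, minus strand): ctatttgatttttaatgaAGcAGgaaaaa
WRKY69 (chr3:21715383-21715411, plus strand): tgttaataattgttgtgtAGtAGgaggaa
In WRKY65 the upstream AG was used at 73.9% in untreated wild type, 70.6% with ABA, 68.1% in untreated rbm25-1 and 68% in rbm25-1 with ABA. In WRKY11 it was used at 10.9%, 9.76%, 7.69% and 9.22%. So the downstream AG dominated in WRKY11 and the upstream AG in WRKY65, in every group. In WRKY69 it was used at 60% and 41.7% in wild type without and with ABA and 50% in untreated rbm25-1. None of these was called, with unadjusted p-values of 0.0767 or above in the authors' deposited tables.

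**Figure D5:**
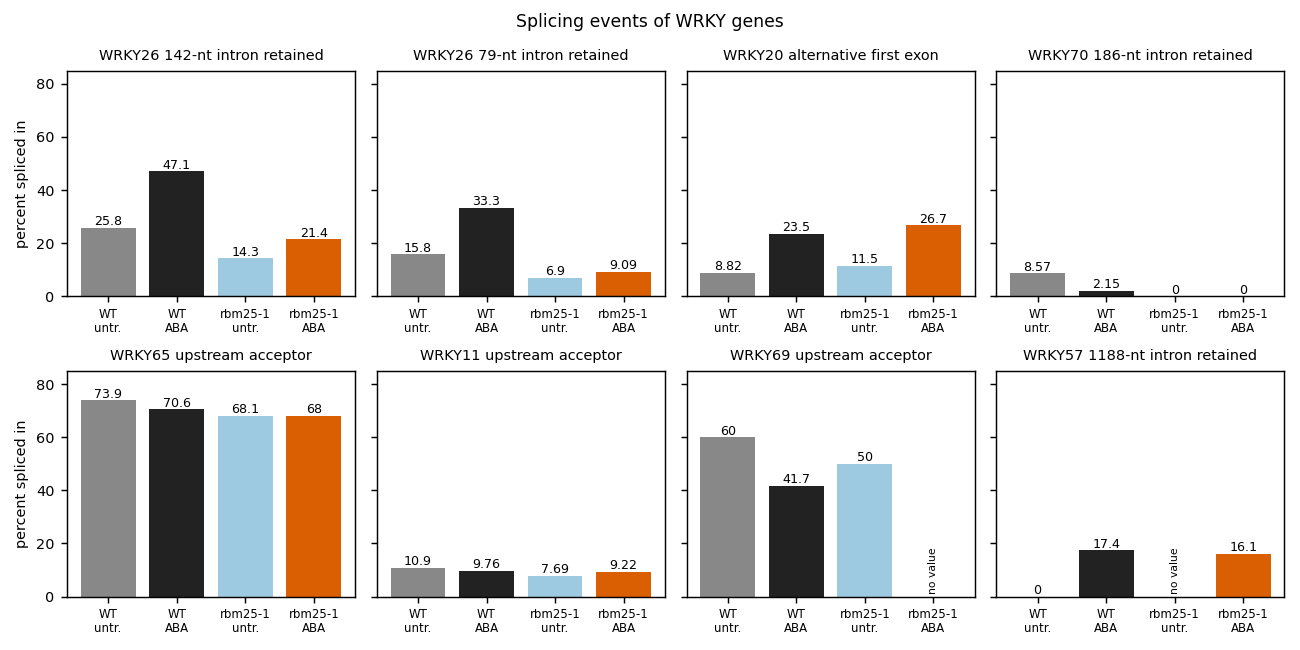
PSI (percent) of 8 splicing events of WRKY genes in the 4 groups, 1 bar per group value, with the value above each bar. The 2 panels of WRKY26 share a shape, highest in wild type with ABA (47.1% and 33.3%), while the panels of WRKY65 and WRKY11 are nearly flat.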

How the data were processed

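Per the submitters' processing notes, reads of 12 poly(A) libraries were handled with Trimmomatic 0.32, TopHat2 2.0.13, Cufflinks 2.2.1 and Cuffdiff on TAIR10, with no settings given. The authors deposited 3 gene tables and 3 splicing tables. By their headers, the gene tables that the authors deposited hold FPKM per group, log2 fold changes, and p-values with adjusted p-values (q). The deposited log2 has no pseudocount. Equal p-values had equal q across the deposited tables, and no listed locus had under 0.547 FPKM in its higher group. By their headers, the deposited splicing tables hold PSI as a percent, its difference and an unadjusted p, the last pair recorded as a score because damaged events (33, 28 and 28) held other values in the authors' files and were left out. The program behind these p-values is not given in the sources used here.

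Genes were called at the authors' q under 0.05 over all loci, with no test of replicates here, since each group has a single deposited value. Folds are ratios of deposited FPKM. Members were matched by identifier (54 of 54 names matched the annotation), and 11 overlap another annotated gene, each on the other strand. Splicing p-values were adjusted by Benjamini-Hochberg within each table with own code (NumPy 2.4.6, pandas 2.3.3), checked against statsmodels 0.14.6 on simulated p-values. 2 events assigned to members lie outside them and were left out. Coordinates and sequences are of TAIR10.1, where 95.6%, 95.7% and 94.9% of deposited retained introns had GT-AG ends. The members, their subgroups (from the usual classification) and the lists were chosen with earlier results of these data known. The 4 group values are written out for members called in either mutant comparison and for the 10 called rises and 10 called falls (6 existed) of largest log2 with ABA in wild type, and list examples are the called genes of largest log2. Alternatives were adjustment within a table, a 2-fold minimum, a minimum of 5 FPKM, centring on the median locus, FPKM + 1, and counting the merged locus.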

Additional observations from a re-analysis of the deposited data

How the results depend on the processing

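With calls of at least 2-fold, the ABA response in wild type had 18 members higher and 2 lower, untreated rbm25-1 had 1 and 0, and rbm25-1 with ABA 3 and 0. With at least 2-fold on FPKM + 1 the counts were 16 and 0, 0 and 0, and 0 and 0. With at least 5 FPKM in the higher group they were 23 and 4, 2 and 2, and 6 and 2. Adjusted within each table, untreated rbm25-1 had 2 higher (WRKY54 and WRKY60) and 1 lower (WRKY22), against 6 and 3, and with ABA 8 and 5 against 11 and 6. Of the 26 mutant calls, 10 ended under that adjustment alone. The alternatives could not reverse a mutant call, because centring moved the log2 by little and the others keep its sign. The authors' q was equal at equal p across the 3 comparisons, and 56.1% of loci were called in the ABA comparison. Adjusted within 1 comparison, the same p-values of the mutant calls gave larger values. The main mutant calls therefore rest on the more lenient of the 2 adjustments. Splicing events numbered 4 (ABA in wild type) and 3 (rbm25-1 with ABA) without adjustment, and 2 and 2 with 10 points as well, against 0 and 0; adjusting over the 3 tables together left 0. No paired analysis was possible because the tables hold group values, with no value per replicate. For the same reason no replicate could be left out, and the depth behind low members such as WRKY38, WRKY46 and WRKY55 is unknown.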
